A study of Mus musculus with 24 samples.

Results

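The 30 collagen genes of the deposited mouse kidney table were compared between obstructed and sham-operated kidneys, and between courses of istradefylline. They were chosen by symbol alone, as every gene named Col, a number, the letter a and a number, out of 14407 genes listed. Collagens are matrix proteins wound from 3 alpha chains, and each gene encodes 1 kind of chain. Fibrillar collagens (types I, III, V and their relatives) form the cable-like fibrils of connective tissue and scar, while type IV forms the sheet under epithelia and in the glomerular filter. Type VI makes beaded microfilaments, types VIII and X make open lattices, the FACIT collagens sit on fibril surfaces, multiplexins (types XV and XVIII) lie near basement membranes, and transmembrane collagens such as type XVII span the cell surface. In the kidney, fibrillar collagen in the space between tubules is the hallmark of fibrosis.

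Whole left kidneys of wildtype mice had been sequenced, 4 libraries in each of 6 groups. The groups were UUO with an early course of istradefylline (UUO early), UUO with a late course (UUO late), UUO with vehicle (UUO vehicle), and the same 3 treatments after a sham operation (sham early, sham late and sham vehicle). Unilateral ureteral obstruction (UUO) blocks the drainage of 1 kidney and is used as a model of tubular injury and fibrosis. Istradefylline blocks a receptor for adenosine. The labels name the treatments as early intervention, late intervention and vehicle, and the drug is named in the series title. Strain, sex, age, dose, days of treatment and whether each library is a separate mouse are not stated in the labels, so p-values measure the spread between these libraries, which may be partly technical.

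Values are FPKM, fragments scaled to gene length and library depth, which compare genes per length within a library. Estimated depth was 7760000 to 12900000 fragments in 23 libraries and could not be read clearly in UUO early library 1. Tubule markers were present in every library, in keeping with a kidney label: the summed FPKM of 6 proximal tubule genes was 92.2 to 698 in UUO and 1380 to 1763 in sham libraries. UUO early library 4 stood apart. It held 2774 FPKM of 6 skeletal muscle genes, against 52.1 and 132 in UUO early libraries 1 and 2 and at most 3.56 in each other library, and it had the lowest proximal tubule sum. Sham early library 1 also stood apart from its group. It held 120 FPKM of 5 adipose genes and 42.1 FPKM of 6 urothelium genes, against at most 12.2 and 17.8 FPKM in the other sham early libraries, and it had the highest value of its group for 18 of the 30 collagen genes. Some results that rest on either library are also given without it, but not all.

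Of the 30 genes, 25 passed the filter of at least 1 FPKM in at least 4 of 24 libraries and were tested. Col10a1, Col20a1, Col23a1, Col26a1 and Col6a4 did not. Of the 25, 7 passed through UUO libraries alone (Col12a1, Col7a1, Col6a3, Col5a3, Col8a2, Col17a1 and Col4a6), so they had to be higher there. Their changes with obstruction are given as a description, with no p. Another 15 had 1 FPKM or more in at least 4 sham libraries. The other 3, Col5a1, Col8a1 and Col6a2, reached 1 FPKM in all 12 UUO libraries but in only 1, 1 and 2 sham libraries. These passed mainly through UUO libraries, and no p is given for their changes with obstruction.

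Obstructed kidneys had more RNA of most collagen genes. On the scale of log2(FPKM + 1), which understates the change of low genes, the changes of Col1a1, Col3a1 and Col1a2 lay farthest above 0. As ratios of mean FPKM in UUO vehicle to sham vehicle, Col1a1 stood at 45.6, Col3a1 at 34.2 and Col1a2 at 22.9, beside 48.6 for Col12a1, 34.3 for Col8a2 and 29.1 for Col8a1, so no order is read between these genes. The ratio of Col17a1 was larger still, from means of 1.45 FPKM in UUO vehicle and 0.00835 FPKM in sham vehicle. Its sham vehicle mean rests on library 4 alone, the only one above 0. In UUO vehicle against sham vehicle kidneys, limma with Benjamini-Hochberg adjustment over 13127 genes called 21 of the 25 tested collagen genes higher and 3 lower at adjusted p under 0.05. Over all tested genes, 50.3% were called higher and 16.7% lower. The 21 include the 7 genes that had to be higher and the 3 that passed mainly through UUO libraries. Of the 15 genes with 1 FPKM or more in at least 4 sham libraries, 11 were called higher, 3 lower and 1 was not called. The median log2 change of FPKM + 1 was 1.92 over the collagen genes and 0.32 over all genes. With FPKM rescaled by the median of ratios, all genes split into 4047 higher and 3985 lower, against 6604 and 2186 as deposited, the median over all genes moved to 0.01, and the collagen genes stood at 20 higher and 4 lower with a median of 1.51. Under the early course 22 were higher and 3 lower (54.7% and 17.3% of all genes), and under the late course 22 were higher and 1 lower (59% and 16.5% of all genes). Of the 15 genes, 12 were higher and 3 lower under the early course, and 12 higher and 1 lower under the late course. In these bulk samples, fewer cells of a type and less RNA per cell cannot be told apart.

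Across treatments, 21 of the 30 genes, all of them among the 25 tested, had all 12 UUO libraries above all 12 sham libraries. This pattern was met by 35.1% of tested genes. Among the 21 are the 7 genes that passed the filter through UUO libraries alone and the 3 that passed mainly through them. None of the 30 had all 12 below, a pattern met by 9.51%. The other 9, whose groups overlapped, were Col4a3, Col4a4, Col4a5, Col27a1, Col23a1, Col26a1, Col20a1, Col6a4 and Col10a1. The 7 fibroblast and myofibroblast markers moved with the collagens. Their summed FPKM was 111 to 414 in UUO and 14.4 to 41.9 in sham libraries, all 7 were higher in each of the 3 obstruction comparisons, and their part in the collagen changes was not tested. Macrophage markers also differed. The summed FPKM of 6 macrophage genes was 528 to 1108 in UUO and 33.5 to 50.8 in sham libraries, with all 6 called higher in each obstruction comparison. That of 6 endothelial genes was 59.7 to 115 in UUO and 26.8 to 64.8 in sham libraries, which overlap. Under vehicle, the early course and the late course, 3, 4 and 5 of them were called higher and 1, 0 and 0 lower. Over all tested genes, 50.3%, 54.7% and 59% were called higher in these comparisons and 16.7%, 17.3% and 16.5% lower. The endothelial count under vehicle is near these shares, so no change of that list is read from it. The part of macrophages and endothelium was not tested either.

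**Figure D1:**
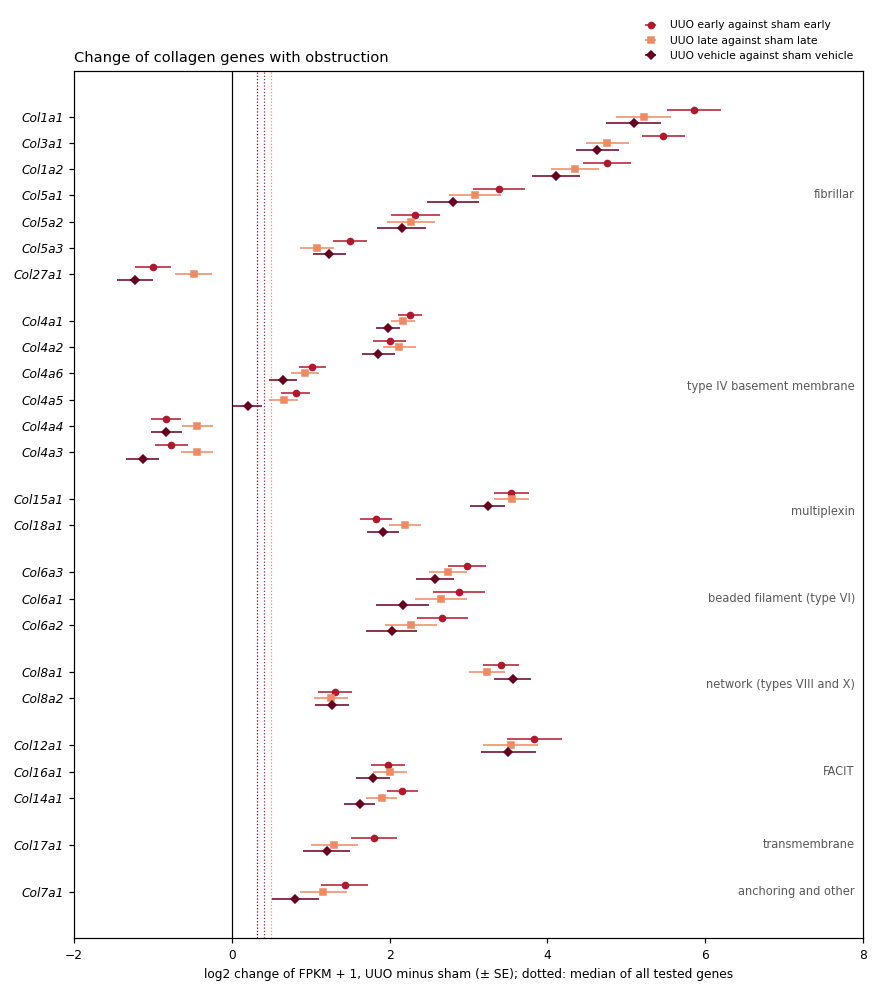
Log2 change of FPKM + 1 (horizontal axis, with its SE) of the 25 tested collagen genes, grouped by class, for UUO against sham under the early course, the late course and vehicle. Dotted lines mark the median of all tested genes in each comparison. Col1a1, Col3a1 and Col1a2 lie farthest right, and Col27a1, Col4a4 and Col4a3 lie left of 0.

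Of the 7 fibrillar genes tested, 6 were called higher and 1 lower in UUO vehicle against sham vehicle, beside 50.3% and 16.7% of all tested genes. Of the 6, Col5a3 had passed the filter through UUO libraries alone and Col5a1 mainly through them. Col1a1 encodes the major chain of type I collagen (ENSMUSG00000001506, GRCm38 chromosome 11, 94936224 to 94953042, plus strand). It had 86.1, 168, 128 and 148 FPKM in UUO vehicle libraries, against 2.30, 2.51, 4.58 and 2.24 FPKM in sham vehicle libraries. The lowest UUO value was far above the highest sham value, and the log2 change was 5.09 (SE 0.34, adjusted p = 1.09e-10). Under the courses, Col1a1 had 260, 117, 78.5 and 240 FPKM in UUO early, against 1.88, 1.85, 1.30 and 1.79 in sham early. It had 65.8, 106, 129 and 214 FPKM in UUO late, against 3.37, 2.20, 1.79 and 1.64 in sham late.

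Col1a2 encodes the other chain of type I (chromosome 6, 4504814 to 4541544, plus strand). It had 42.7, 93.0, 83.9 and 99.98 FPKM in UUO vehicle libraries, against 4.00, 3.16, 4.03 and 2.78 FPKM in sham vehicle libraries (log2 change 4.11, SE 0.31, adjusted p = 4.31e-10). Col3a1, the single chain of type III collagen (chromosome 1, 45311538 to 45349706, plus strand), had 59.3, 121, 99.8 and 101 FPKM in UUO vehicle, against 3.21, 2.24, 3.17 and 2.53 in sham vehicle (log2 change 4.63, SE 0.27, adjusted p = 1.38e-11). For both genes the groups stood well apart, and UUO vehicle library 1 was the lowest of its group.

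Type V collagen seeds fibrils and sets their width. Col5a1 had 7.13, 17.9, 12.1 and 13.1 FPKM in UUO vehicle, against 1.01, 0.773, 0.825 and 0.825 in sham vehicle (log2 change 2.80). No p is given for Col5a1, since it passed the filter mainly through UUO libraries. Col5a2 had 8.24, 21.3, 17.7 and 18.1 FPKM in UUO vehicle, against 3.15, 2.24, 3.12 and 2.40 in sham vehicle (log2 change 2.15, SE 0.31, adjusted p = 4.10e-06). The rarer chain gene Col5a3 had 2.52, 3.68, 2.25 and 2.44 FPKM in UUO vehicle, against 0.638, 0.392, 0.840 and 0.433 in sham vehicle (log2 change 1.23, with no p since it passed the filter through UUO libraries alone). None of these groups overlapped.

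Col27a1 (chromosome 4, 63214004 to 63334991, plus strand), which encodes a fibrillar chain best known from cartilage, was the exception. It fell to 3.51, 2.62, 2.23 and 4.77 FPKM in UUO vehicle, against 6.93, 10.1, 10.5 and 8.01 FPKM in sham vehicle (log2 change -1.23, SE 0.23, adjusted p = 0.000104). It was also lower under the early course (log2 change -1.002, adjusted p = 0.000648), and by log2 -0.76 (adjusted p = 0.00351) without sham early library 1, which held 13.1 FPKM. Under the late course the log2 change was -0.49 (adjusted p = 0.0635) and the libraries overlapped. It passed the threshold there with rescaling by the median of ratios, in a fit on the compared groups only, and without sham late library 3 or UUO late library 1.

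The promoter windows of Col1a2 and Col3a1 are shown because both genes rose by over 4 log2 units while their start regions differ in the motifs searched. They are RefSeq sequence of GRCm38.p6, plus strand, from 250 bases before to 50 bases after the annotated start, at chr6:4505368-4505667 for Col1a2 and chr1:45311288-45311587 for Col3a1. The Col1a2 start used by RefSeq lies inside the locus given in the deposited table. Capitals mark the CCAAT box, searched on both strands and so also read as ATTGG. They also mark the GC box, searched as GGGCGG on both strands. No marked boxes overlap each other.
Col1a2: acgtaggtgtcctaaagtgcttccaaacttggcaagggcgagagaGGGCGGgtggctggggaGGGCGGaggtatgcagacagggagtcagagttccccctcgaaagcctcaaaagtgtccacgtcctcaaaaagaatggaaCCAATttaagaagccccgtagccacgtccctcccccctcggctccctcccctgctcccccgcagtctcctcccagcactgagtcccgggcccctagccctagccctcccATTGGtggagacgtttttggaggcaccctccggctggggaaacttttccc
Col3a1: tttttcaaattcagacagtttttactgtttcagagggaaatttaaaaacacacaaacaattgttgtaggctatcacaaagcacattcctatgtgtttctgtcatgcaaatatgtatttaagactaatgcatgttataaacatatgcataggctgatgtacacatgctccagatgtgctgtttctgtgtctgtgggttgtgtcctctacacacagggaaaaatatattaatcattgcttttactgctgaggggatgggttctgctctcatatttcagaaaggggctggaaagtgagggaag
The Col1a2 window held 2 CCAAT boxes and 2 GC boxes, and the Col3a1 window held neither. Of 32851 windows in the RefSeq table, 37.4% held a CCAAT box, 35.7% a GC box and 13.6% a TATA box, searched as TATAAA on both strands. Of 26 windows of 24 collagen genes, 10 held a CCAAT box, 17 a GC box and 3 a TATA box. A match describes letters in the window and says nothing of a factor's binding.

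**Figure D2:**
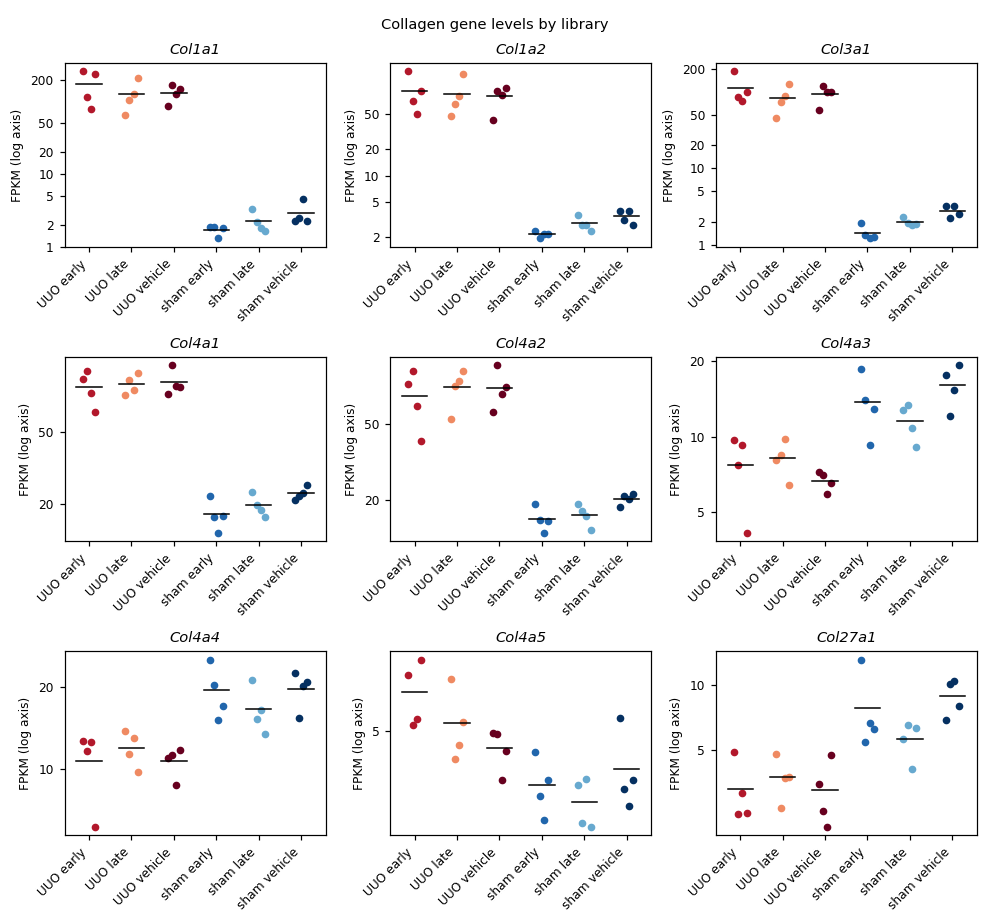
FPKM on a log axis of 9 collagen genes in each of the 24 libraries (points), with the group mean as a bar. UUO groups stand left of sham groups. Col1a1, Col1a2, Col3a1, Col4a1 and Col4a2 lie higher in every UUO library than in any sham library, while Col4a3, Col4a4 and Col27a1 lie mostly lower.

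The type IV genes split by partner. Mouse genomes carry them as 3 head-to-head pairs, and the products assemble into separate networks: Col4a1 and Col4a2 in nearly all basement membranes, Col4a3, Col4a4 and Col4a5 in the mature glomerular basement membrane and some tubules, and Col4a5 with Col4a6 in others, including Bowman's capsule. In UUO vehicle against sham vehicle, 3 of 6 type IV genes were called higher, 2 fell and 1 was not called. Of the 3, Col4a6 had passed the filter through UUO libraries alone. Over all tested genes, 50.3% were called higher and 16.7% lower. The type IV count of higher genes is near that share, so the split is read from the single genes below.

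Col4a1 (chromosome 8, 11198423 to 11312826, minus strand) had 81.1, 117, 89.9 and 88.6 FPKM in UUO vehicle, against 21.0, 22.2, 23.1 and 25.4 FPKM in sham vehicle (log2 change 1.98, SE 0.15, adjusted p = 8.62e-10). Col4a2 (chromosome 8, 11312805 to 11449287, plus strand) had 57.7, 101, 72.0 and 78.3 FPKM in UUO vehicle, against 18.4, 20.9, 20.2 and 21.5 in sham vehicle (log2 change 1.85, SE 0.21, adjusted p = 2.03e-07). Both were well separated between the groups, and both rose under each course as well, by log2 2.25 and 2.00 under the early course and by 2.17 and 2.12 under the late course.

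Col4a3 (chromosome 1, 82586921 to 82722059, plus strand) fell to 7.21, 7.06, 5.92 and 6.54 FPKM in UUO vehicle, against 17.5, 12.1, 15.4 and 19.2 FPKM in sham vehicle (log2 change -1.13, SE 0.21, adjusted p = 7.13e-05). Col4a4 (chromosome 1, 82448423 to 82586849, minus strand) fell to 11.0, 11.2, 8.72 and 11.7 FPKM in UUO vehicle, against 22.6, 15.4, 20.3 and 21.0 FPKM in sham vehicle (log2 change -0.83, SE 0.19, adjusted p = 0.000825). Neither overlapped between these groups. Under the early course both fell, by log2 changes of -0.77 and -0.83, and without UUO early library 4, which held the lowest Col4a3 and Col4a4 values of all libraries, the changes were -0.54 (adjusted p = 0.0129) and -0.61 (adjusted p = 0.00312). Under the late course both changes were -0.44. There Col4a4 passed the threshold narrowly (adjusted p = 0.0464) and lost it without any 1 of 6 libraries and with FPKM rescaled to the same sum (adjusted p = 0.364), while Col4a3 did not pass (adjusted p = 0.0585). Col4a3 passed with a replicate block (adjusted p = 0.0468), with rescaling by the median of ratios, in a fit on the compared groups only, and without sham late library 4 or UUO late library 3.

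Loop, distal tubule and collecting duct markers, like the proximal ones, had lower sums in UUO (286 to 792) than in sham libraries (899 to 1270). The sums of 6 podocyte genes overlapped. They were 40.7 to 64.5 FPKM in UUO libraries (median 53.2) and 22.5 to 68.7 FPKM in sham libraries (median 31.7). The part of any of these cell types in the Col4a3 and Col4a4 changes was not tested.

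Col4a5 (chromosome X, 141475385 to 141689234, plus strand) had 4.91, 4.90, 3.47 and 4.29 FPKM in UUO vehicle, against 5.48, 3.24, 2.86 and 3.47 in sham vehicle. These values overlapped, and the log2 change of 0.20 did not pass the threshold (adjusted p = 0.345). It turned to -0.11 after rescaling by the median of ratios. Under the early and late courses Col4a5 rose by log2 0.81 and 0.66, although the late call was lost under that rescaling (log2 change 0.18, adjusted p = 0.378). The low-level gene Col4a6, which passed the filter through UUO libraries alone, had 0.830, 1.30, 0.903 and 1.16 FPKM in UUO vehicle, against 0.652, 0.276, 0.0966 and 0.240 in sham vehicle (log2 change 0.65).

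The shared start regions of the pairs that moved in opposite directions come from the same RefSeq windows and with the same motifs in capitals. The annotated starts of Col4a1 and Col4a2 overlap by 22 bases, so the minus-strand window of Col4a1, chr8:11312777-11313076, covers both starts but only 28 bases before that of Col4a2. The starts of Col4a4 and Col4a3 lie 71 bases apart, and the minus-strand window of Col4a4, chr1:82586800-82587099, spans both.
Col4a1 and Col4a2: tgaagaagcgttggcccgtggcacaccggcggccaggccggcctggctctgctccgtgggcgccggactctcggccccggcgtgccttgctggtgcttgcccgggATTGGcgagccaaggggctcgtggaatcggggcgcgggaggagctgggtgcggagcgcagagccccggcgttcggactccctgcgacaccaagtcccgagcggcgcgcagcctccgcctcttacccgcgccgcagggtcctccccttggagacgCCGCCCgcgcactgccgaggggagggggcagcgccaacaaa
Col4a4 and Col4a3: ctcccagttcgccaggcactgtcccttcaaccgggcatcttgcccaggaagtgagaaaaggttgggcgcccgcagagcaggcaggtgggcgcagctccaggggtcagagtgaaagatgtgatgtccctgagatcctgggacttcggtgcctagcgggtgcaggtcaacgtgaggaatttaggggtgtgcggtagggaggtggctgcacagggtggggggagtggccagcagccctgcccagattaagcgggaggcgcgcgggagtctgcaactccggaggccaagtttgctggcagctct
The first window held 1 CCAAT box and 1 GC box, and the second held neither. Col4a2's own window, not printed, held 1 CCAAT box and 3 GC boxes. The starts of Col4a6 and Col4a5 lie 1308 bases apart on chromosome X, farther than 1 window reaches. The library kit was stranded per the labels' protocols, but whether counting used strand is not given in the sources used here, and reads from the 22 shared bases may not be told apart.

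Both multiplexin genes rose. Col15a1, whose product lies between basement membrane and interstitium, had 22.0, 35.5, 23.0 and 36.5 FPKM in UUO vehicle, against 2.41, 1.63, 2.51 and 2.00 in sham vehicle (log2 change 3.24, SE 0.22, adjusted p = 1.44e-10). Col18a1, the source of endostatin, had 67.2, 91.4, 58.0 and 62.8 FPKM in UUO vehicle, against 15.5, 16.8, 17.7 and 20.3 in sham vehicle (log2 change 1.92, SE 0.20, adjusted p = 7.66e-08). In every group most Col18a1 signal of the transcript table came from Col18a1-202, with group means of 88.9 to 94.7% of the summed transcripts.

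Col6a1 and Col6a2 rose among the type VI genes, and Col6a3 passed the filter through UUO libraries alone. Col6a1 had 7.13, 23.8, 19.6 and 15.3 FPKM in UUO vehicle, against 2.74, 2.42, 2.62 and 2.62 in sham vehicle (log2 change 2.16, SE 0.33). Col6a2 had 3.28, 11.8, 8.25 and 5.64 FPKM in UUO vehicle, against 0.835, 0.721, 0.843 and 1.11 in sham vehicle (log2 change 2.03, SE 0.32). Col6a3, which encodes the longest chain of the trimer, had 7.02, 12.6, 9.60 and 9.26 FPKM in UUO vehicle, against 0.955, 0.833, 0.588 and 0.660 in sham vehicle (log2 change 2.57). The groups did not overlap for any of them, and UUO vehicle library 1 was again the lowest of its group. Col6a4 was under the filter, at 0.110 to 0.960 FPKM in UUO and 0 to 0.129 FPKM in sham libraries.

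Type VIII makes the lattices of vessel walls and of a basement membrane of the cornea. Col8a1 had 16.3, 12.9, 23.6 and 23.1 FPKM in UUO vehicle, against 0.680, 0.572, 0.606 and 0.754 in sham vehicle (log2 change 3.56). No p is given for Col8a1, since it passed the filter mainly through UUO libraries. Col8a2 had 0.651, 2.01, 1.98 and 1.73 FPKM in UUO vehicle, against 0.0538, 0.0579, 0.0321 and 0.0421 in sham vehicle (log2 change 1.27), and it passed the filter through UUO libraries alone. The scale adds 1 to each FPKM and so understates the change of a gene this low. Col10a1, the collagen of hypertrophic cartilage, was listed at 0 in all 12 sham libraries, and had up to 4.27 FPKM in UUO libraries with a median of 0.409.

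Of the FACIT genes, Col14a1 and Col16a1 rose, and Col12a1 passed the filter through UUO libraries alone. Col12a1 (chromosome 9) had 6.31, 20.1, 13.0 and 21.3 FPKM in UUO vehicle, against 0.496, 0.296, 0.231 and 0.226 in sham vehicle (log2 change 3.50). Its size depends on the table: the means were 15.2 and 0.312 FPKM in the gene table, against 24.3 and 1.67 FPKM as summed transcripts, where Col12a1-204 made up 85.1% of the sham vehicle sum and 22.3% of the UUO vehicle sum. Col14a1 had 8.60, 11.5, 10.8 and 11.4 FPKM in UUO vehicle, against 3.12, 2.25, 3.17 and 2.50 in sham vehicle (log2 change 1.62, SE 0.19, adjusted p = 4.23e-07). Col16a1 rose by log2 1.79 (adjusted p = 5.00e-07). Col20a1, under the filter, stayed under 1 FPKM in every library.

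The transmembrane collagens were scarce. Col17a1 of that class, and Col7a1 of the class of anchoring and other collagens, passed the filter through UUO libraries alone. Col17a1, the hemidesmosome collagen of stratified epithelia, had 1.06, 2.88, 1.28 and 0.586 FPKM in UUO vehicle, against 0, 0, 0 and 0.0334 in sham vehicle (log2 change 1.20). Col7a1, the anchoring fibril collagen beneath such epithelia, had 0.667, 2.17, 1.00 and 1.98 FPKM in UUO vehicle, against 0.461, 0.236, 0.404 and 0.347 in sham vehicle (log2 change 0.80). Col7a1 is among the 21 called higher, and its call was lost without UUO vehicle library 2 or 4 and under rescaling by the median of ratios. UUO early library 4 had 7.32 FPKM of Col17a1 and 7.10 of Col7a1, against at most 2.31 and 2.39 in the other UUO early libraries. Without it the early-course changes were 1.38 for Col17a1 and 1.02 for Col7a1, against 1.80 and 1.43 with it.

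Markers of urothelium, the lining of the renal pelvis and ureter, were also higher in obstructed kidneys. The summed FPKM of 6 genes (5 uroplakin genes and Krt5) was 37.1 to 473 in UUO and 9.25 to 42.1 in sham libraries. All 6 were called higher under vehicle and under the late course, against 50.3% and 59% of all tested genes. Under the early course 3 of 6 were called higher, which is near the 54.7% of all tested genes. Sham early library 1 held the highest sham sum, and no count without it is given here. The part of urothelium in the Col17a1 and Col7a1 changes was not tested. The other transmembrane member, Col23a1, had 0.314 to 0.903 FPKM in UUO and 0.542 to 1.14 FPKM in sham libraries. In a fit without the filter it was lower under vehicle (log2 change -0.36, adjusted p = 0.00598) and under the early course (-0.31, adjusted p = 0.0125), but not under the late course (-0.06, adjusted p = 0.619). That fit covered all 30 genes and called 22 higher and 4 lower under vehicle (49.7% and 15.7% of 14407 genes), 23 and 4 under the early course (55% and 16.2%), and 25 and 1 under the late course (58.6% and 15.5%). The genes called higher include the 7 that passed the filter through UUO libraries alone. They also include Col6a4, and under the late course Col10a1 and Col20a1. Each of these genes reached the 0.5002 FPKM that every listed gene has in some group only in UUO groups. Col26a1, which is grouped with Col7a1 here, had 0.117 to 0.888 FPKM in UUO and 0.402 to 1.08 FPKM in sham libraries and was not called in that fit.

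The collagen genes together made up 0.259% ± 0.087 of the summed FPKM in UUO early, 0.241% ± 0.081 in UUO late and 0.232% ± 0.059 in UUO vehicle, against 0.0322% ± 0.0069 in sham early, 0.0304% ± 0.0041 in sham late and 0.0392% ± 0.0020 in sham vehicle (SD, n = 4 each). Their make-up differed too. Fibrillar genes held 50.9% ± 11.8, 44.0% ± 5.9 and 46.4% ± 4.4 of the collagen sum in UUO early, UUO late and UUO vehicle, against 14.8% ± 1.3, 14.3% ± 1.7 and 16.2% ± 2.4 in sham early, sham late and sham vehicle. Type IV genes held 24.2%, 28.3% and 26.9% in the UUO groups, against 61.8%, 61.4% and 60.4% in the sham groups. These shares have no test, being sums over the members.

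**Figure D3:**
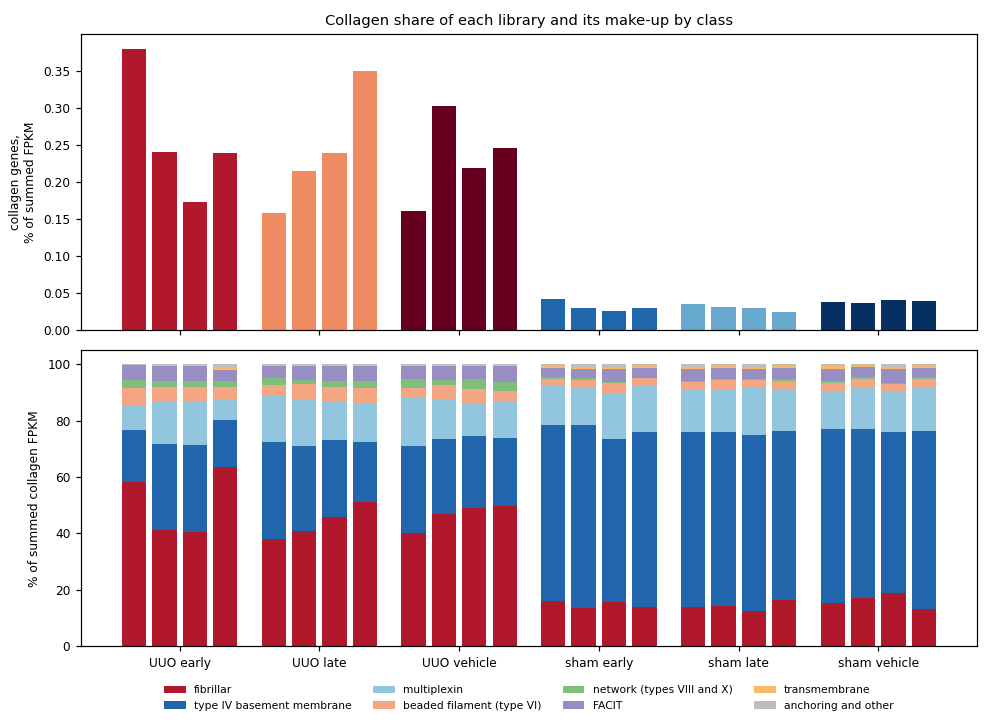
Collagen genes as a percent of all summed FPKM in each library (upper panel) and the percent of the collagen sum held by each class (lower panel), 4 libraries a group. UUO libraries lie between 0.158 and 0.381%, all above the sham libraries, and fibrillar genes take the place that type IV genes hold in sham libraries.

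The order of levels between genes depends on which table gives the length. By gene-table means, Col1a1 was the most abundant collagen gene in all 3 UUO groups. By summed transcripts, Col1a2 was first in UUO vehicle (185 FPKM), ahead of Col3a1 (169 FPKM) and Col1a1 (147 FPKM), since its transcript sum was 2.31 times its gene value. No order among these 3 genes is therefore read from the data. Fibrillar genes held 52.7% of the summed transcripts in UUO vehicle and 20.4% in sham vehicle, and type IV genes held 21.0% and 52.8%, so the turn from type IV to fibrillar is in both tables.

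Ratios between chain genes, some of the same molecule and some of separate molecules or networks, were compared within libraries, where a library's scaling nearly cancels. For 8 ratios of FPKM + 0.1, an exact two-sided permutation test shuffled surgery labels within each treatment over 343000 arrangements, with Benjamini-Hochberg adjustment over the 8. The smallest adjusted p seen, 1.17e-05, came from ratios at the smallest p the test can give, 5.83e-06.

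Type I collagen normally joins a pair of chains from Col1a1 with 1 from Col1a2. The ratio of Col1a1 to Col1a2 was 1.36 to 2.57 in UUO libraries with a median of 1.61, against 0.586 to 1.13 in sham libraries with a median of 0.798. All 12 UUO libraries lay above all sham libraries, and the mean log2 ratio was higher by 1.09 (exact adjusted p = 1.17e-05). With summed transcripts the medians were 0.768 and 0.391 and the difference 1.06, so the shift holds but the ratio itself is not a chain count. Col3a1 to Col1a1 had a median ratio of 0.700 in UUO and 0.911 in sham libraries (log2 difference -0.40, exact adjusted p = 0.00603), with overlap. Col5a1 to Col5a2 had 0.627 to 0.966 in UUO and 0.144 to 0.436 in sham libraries, again without overlap (log2 difference 1.58). Sham Col5a1 was 0.342 to 1.01 FPKM with a median of 0.594, and it reached 1 FPKM in only 1 sham library. No p is therefore given for this ratio. With 1 in place of 0.1 the difference was 0.84, so the direction held but its size depends on the constant added.

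The widest shift was between the type IV networks. The ratio of Col4a3 to Col4a1 was 0.0613 to 0.115 in UUO libraries with a median of 0.0811, against 0.541 to 0.835 in sham libraries with a median of 0.669. The groups were far apart, with a log2 difference of -3.04 (exact adjusted p = 1.17e-05), which was -3.25 under vehicle, -3.16 under the early course and -2.71 under the late course. Within pairs the ratios moved little when pooled over treatments. Col4a3 to Col4a4 had medians of 0.675 in UUO and 0.742 in sham libraries (log2 difference -0.11, exact adjusted p = 0.147). This difference was -0.348 under vehicle, 0.046 under the early course and -0.017 under the late course, a split that was not tested. Under vehicle the libraries did not overlap, at 0.564 to 0.682 in UUO vehicle and 0.759 to 0.914 in sham vehicle. Col4a1 to Col4a2 had medians of 1.22 in UUO and 1.14 in sham libraries (log2 difference 0.14, exact adjusted p = 0.0386). The last call was lost in 12 of 24 fits that left out 1 library, where the difference ranged from 0.101 to 0.164.

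In type VI, Col6a3 to Col6a1 had medians of 0.563 in UUO and 0.289 in sham libraries (log2 difference 0.87), with 11 of 12 UUO libraries above all sham libraries. No p is given, since Col6a3 was under 1 FPKM in every sham library. Col6a1 to Col6a2 had medians of 2.39 and 2.79 (log2 difference -0.27, exact adjusted p = 0.0162). Both depend on the constant added: with 1 in place of 0.1 the differences were 0.20 and 0.24, the second in the opposite direction (exact adjusted p = 0.00459), so no direction is read for either.

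**Figure D4:**
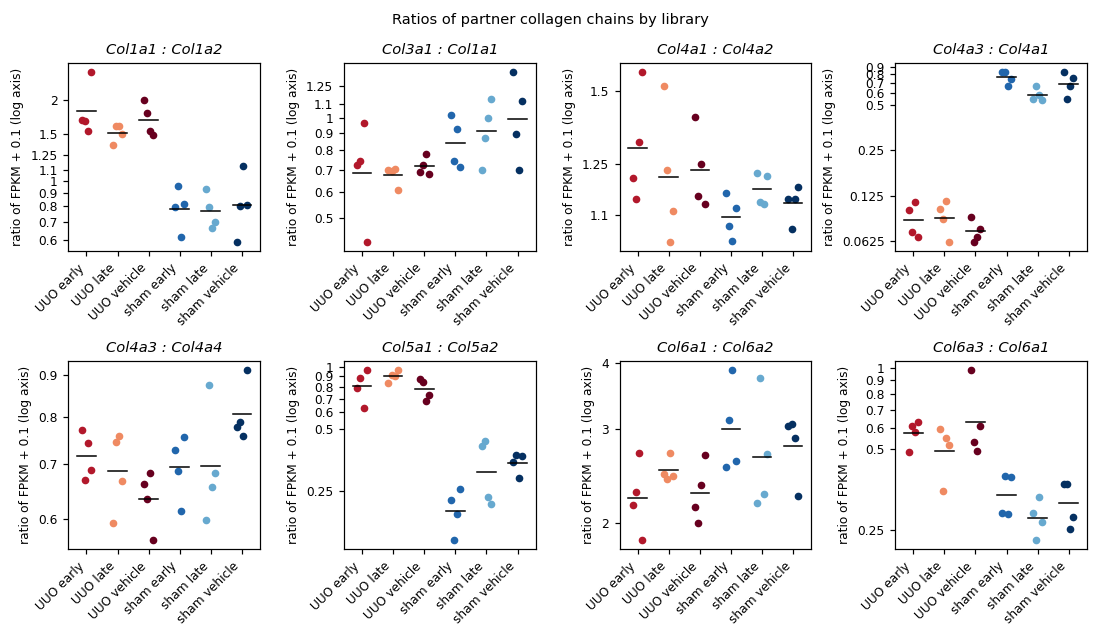
Ratio of FPKM + 0.1 between 8 pairs of collagen chains in each library (points, log axes) with the geometric mean of each group as a bar. UUO and sham libraries do not overlap for Col1a1 to Col1a2, Col4a3 to Col4a1 and Col5a1 to Col5a2, and they overlap for the other 5.

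Neither course of istradefylline moved any collagen gene past the threshold. In obstructed kidneys the early course against vehicle gave 0 of 25 called against 0.0152% of all genes, the late course against vehicle gave 0 of 25, against 0.137%, and the early against the late course gave 0 of 25, against 0.0305%. At an unadjusted p under 0.05 these comparisons had 2, 1 and 1 collagen genes, while 8.84%, 9.58% and 8.48% of all genes were under it. The 95% intervals are wide for the fibrillar genes. Col1a1 differed by log2 0.27 between UUO early and UUO vehicle (interval -0.45 to 0.98) and by -0.13 between UUO late and UUO vehicle (-0.85 to 0.59). For Col3a1 these values were 0.20 (-0.37 to 0.76) and -0.21 (-0.78 to 0.35), and the first turned to -0.08 without UUO early library 1 and to -0.01 without UUO vehicle library 1. Col4a1 was measured more tightly, at -0.10 (-0.42 to 0.22) and -0.02 (-0.34 to 0.30).

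The collagen gene with the smallest p under the early course was Col4a5. It had 7.53, 5.22, 5.45 and 8.46 FPKM in UUO early, against 4.91, 4.90, 3.47 and 4.29 FPKM in UUO vehicle. The groups did not overlap, which held for 1.86% of tested genes, but the log2 change of 0.49 (SE 0.18) did not pass the threshold (unadjusted p = 0.0132, adjusted p = 0.484), and it was 0.38 without UUO early library 4. Under the late course it was the network gene Col8a1, with 10.5, 8.05, 14.5 and 19.1 FPKM in UUO late, against 16.3, 12.9, 23.6 and 23.1 FPKM in UUO vehicle (log2 change -0.53, SE 0.23, adjusted p = 0.461). These values overlapped. Between the courses it was Col5a3, with 5.19, 2.44, 1.56 and 5.44 FPKM in UUO early, against 1.32, 1.96, 2.48 and 2.04 FPKM in UUO late (log2 change 0.57, SE 0.21, adjusted p = 0.513).

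**Figure D5:**
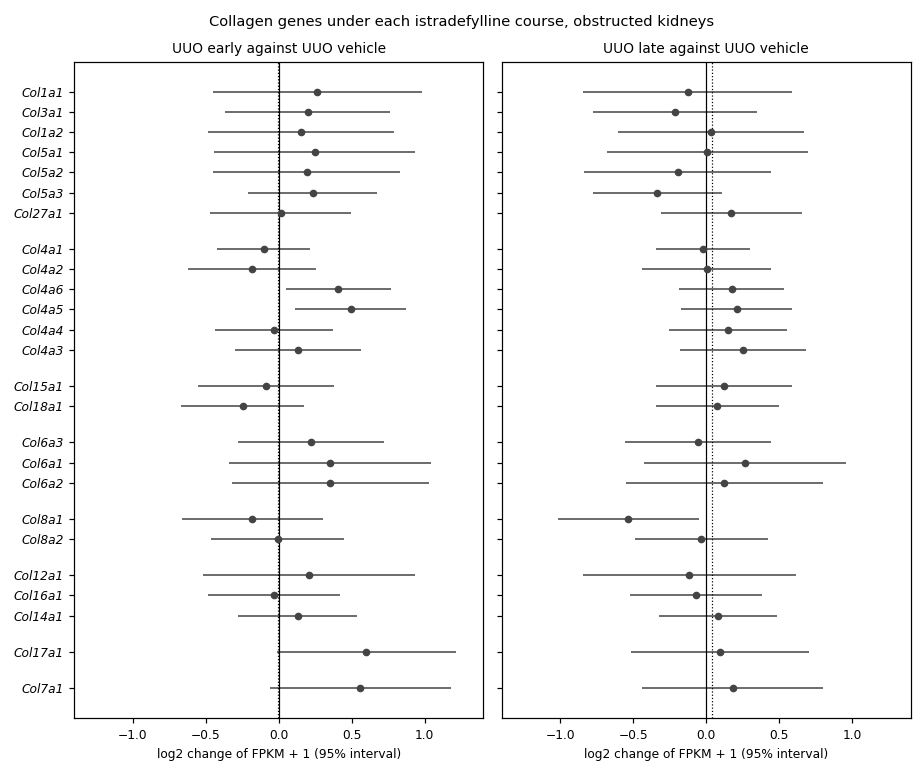
Log2 change of FPKM + 1 with its 95% interval for the 25 tested collagen genes, for UUO early against UUO vehicle (left) and UUO late against UUO vehicle (right). The solid line is 0 and the dotted line the median of all tested genes. Most intervals cross 0, and no gene passed the adjusted threshold.

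Libraries within a group often varied together, in sham as in UUO groups. Sham late library 1 held the highest value of its group for 19 of the 30 genes, sham early library 1 for 18 and sham vehicle library 1 for 14. No such count was made over all genes. UUO early library 1 held the highest value of its group for 20 of the 30 genes, UUO late library 4 for 21 and UUO vehicle library 2 for 18, while UUO early library 3, UUO late library 1 and UUO vehicle library 1 held the lowest for 15, 22 and 19. The fibroblast marker sum went the same way in these UUO libraries. It was 414, 374 and 347 FPKM in the libraries with the highest values, and 149, 111 and 157 in those with the lowest, and its part in the spread was not tested.

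In sham kidneys 0 of 25 genes were called under either course by limma, also without sham early library 1, against 0.00762% of all genes for the early and 1.42% for the late course. At an unadjusted p under 0.05 there were 3 and 2 collagen genes, against 8.55% and 16.4% of all genes. The changes were negative for 22 of 25 genes under the early and 25 of 25 under the late course, with medians of -0.21 and -0.22, against -0.06 and -0.09 over all genes. In 8 of 25 genes all sham early libraries lay below all sham vehicle libraries, which held for 6.72% of tested genes, and under the late course this was so for 2 (Col27a1 and Col5a1), against 12.2%. Col4a1 had the smallest p, with 22.2, 16.9, 14.0 and 17.3 FPKM in sham early, against 21.0, 22.2, 23.1 and 25.4 in sham vehicle (log2 change -0.38, SE 0.15, adjusted p = 0.501), and without sham early library 1 the change was -0.49 (adjusted p = 0.308). Under the late course it was Col27a1, with 5.65, 6.55, 4.09 and 6.36 FPKM in sham late, against 6.93, 10.1, 10.5 and 8.01 in sham vehicle (log2 change -0.57, SE 0.23, adjusted p = 0.223). The fibroblast marker sum was 14.4 to 22.8 in sham early and 18.2 to 21.0 in sham late, against 21.6 to 41.9 in sham vehicle libraries, and its part in these values was not tested.

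Whether obstruction changed collagen genes differently under a course was tested as an interaction. By limma 0 of 25 genes passed for the early course (0.00762% of all genes) and 0 of 25 for the late course (0.0305%). In each, 2 collagen genes had an unadjusted p under 0.05, against 5.43% and 15.1% of all genes. The smallest p under the early course was that of Col4a5 (log2 difference 0.61, SE 0.26, adjusted p = 0.865), followed by Col3a1 at 0.84 (SE 0.38). Under the late course it was that of Col4a3 (0.69, SE 0.29, adjusted p = 0.276), followed by Col27a1 at 0.74 (SE 0.33). The smaller changes of Col4a3 and Col27a1 in UUO late against sham late were therefore not shown to differ from those under vehicle.

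Lists of genes that build, receive and remove collagen are read against the 50.3% of all genes called higher and 16.7% called lower in UUO vehicle against sham vehicle. Of 14 tested genes for hydroxylation and glycosylation of the chains, 10 rose and 3 fell. Those that rose included the lysyl hydroxylase genes Plod2 (means of 11.8 FPKM in UUO vehicle and 5.55 FPKM in sham vehicle, log2 change 0.96) and Plod3 (log2 change 0.70), and the prolyl hydroxylase family gene P3h3 (log2 change 1.44). Those that fell were the galactosyltransferase gene Colgalt2 (-0.91), P3h2, which encodes a prolyl hydroxylase acting on type IV collagen (-0.69), and P4hb, the protein disulfide isomerase subunit of prolyl hydroxylase (-0.32). Of 11 genes for folding and export, 7 rose and 2 fell, which is near the shares of all genes. In UUO late against sham late it was 6 and 2, and the middle log2 change of the 11 was 0.46, against 0.49 over all genes. Kdelr3, a retrieval receptor of the secretory pathway, rose by 3.41, the collagen chaperones Fkbp10 and Serpinh1 rose by 3.00 and 1.83, and Tmem38b, an ion channel gene of the endoplasmic reticulum, and Ctage5, an export gene, fell by 0.69 and 0.49.

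All 3 tested genes for propeptide removal rose: Adamts2 and Bmp1, which encode proteases that trim the ends of procollagen, by 2.71 and 2.26, and the enhancer gene Pcolce by 0.68. All 6 crosslinking genes rose, among them Lox, a lysyl oxidase (means of 19.7 FPKM in UUO vehicle and 0.461 FPKM in sham vehicle, log2 change 3.81), Loxl2 (2.88), Loxl1 (2.71) and Pxdn, the peroxidase that links type IV collagen (2.15). Of 9 receptor genes 8 rose, including the integrin subunit gene Itgb1 (1.43), the inhibitory immune receptor gene Lair1 (1.36) and the type IV collagen receptor gene Adgrg6 (0.98). Of 9 degradation genes 7 rose, including the protease genes Ctsk (3.64), Mmp14 (3.63) and Mmp2 (3.55) and the uptake receptor gene Mrc2 (2.90), which is also among the receptors. Lair1 and Ctsk are also expressed by macrophages, whose markers summed to 528 to 1108 FPKM in UUO and 33.5 to 50.8 FPKM in sham libraries, and the part of those cells was not tested. Each of the changes named here passed the threshold. Genes of these lists were not split by how they passed the filter. Those low in sham kidneys, such as Lox, may have had to be higher. Under the early course the modification genes split into 9 higher and 3 lower and under the late course into 11 and 2, while folding and export gave 7 and 2 under the early course. Under both courses all 3 propeptide and all 6 crosslinking genes, 8 of 9 receptor genes and 8 of 9 degradation genes were called higher. Over all genes, 54.7% were called higher and 17.3% lower under the early course, and 59% and 16.5% under the late course. The early-course counts of modification and of folding and export genes are near these shares. No gene of these lists was called in UUO early against UUO vehicle or in UUO late against UUO vehicle.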

How the data were processed

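RNA of whole kidney had been extracted with Trizol and made into stranded KAPA libraries, per the labels' protocols. The submitters' processing notes name cutadapt, HISAT2, StringTie and GRCm38, with neither roles nor versions. The authors deposited FPKM per gene and per transcript, and every column was used. No gene in the gene table had every group mean under 0.5002 FPKM. Depth was estimated from the smallest steps between transcript values, with a median of 10320000 fragments over 23 libraries.

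Genes with at least 1 FPKM in at least 4 of 24 libraries were tested with limma 3.58.1 in R 4.3.3 on log2(FPKM + 1), with 6 group means, 18 residual degrees of freedom and Benjamini-Hochberg adjustment over 13127 genes, in 10 comparisons. The adjusted p-values of gene changes in all parts of the text come from that fit. Chain ratios used FPKM + 0.1 and an exact two-sided permutation test. The limma script was first tested on simulated data with 200 changed genes.

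The collagen genes and the lists beside them were chosen with earlier results of these data known. Values are given for the genes of the 8 ratios, for the largest and smallest change in each class, and for the smallest p in each comparison. Members named outside that rule were chosen after their values were seen. Alternatives covered the pseudocount, the filter, rescaling, a replicate block, fits on the compared groups only and leaving out each library. Summed transcripts were added after seeing the data. Not every gene of the marker lists is reported here.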

Additional observations from a re-analysis of the deposited data

Results flagged for a closer look

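In each group of 4 libraries, the gap between the most extreme library and its nearest neighbour was set against the whole range, for 30 genes in 6 groups. Of 177 such tests with a range above 0, 10 found a library far from the others, and chance gives about 1 in 20. In UUO libraries these were Col4a4 at 6.08 FPKM in UUO early library 4, the library with 2774 FPKM of skeletal muscle genes, and Col10a1 at 2.36 FPKM in UUO vehicle library 2. In sham early libraries they were Col27a1 at 13.1 FPKM and Col7a1 at 0.383 FPKM in library 1, and Col1a1 at 1.30 FPKM and Col8a2 at 0.0678 FPKM in library 3. Col17a1 stood apart at 0.0219 FPKM in sham late library 2 and at 0.0334 FPKM in sham vehicle library 4. These and the Col8a2 value are each the only value above 0 in their group. Sham vehicle library 3 stood apart for Col1a1, at 4.58 FPKM, and for Col26a1, at 0.953 FPKM.

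A pair of collagen transcripts appeared in the transcript table alone, with no row for their genes in the gene table. Col11a1-201, of a fibrillar collagen gene, averaged 0.613 FPKM over 12 UUO libraries and 0.0294 FPKM over 12 sham libraries, where the highest value was 0.0840. Col13a1-205, of a transmembrane collagen gene, averaged 0.416 FPKM over 12 UUO libraries and 0.247 FPKM over 12 sham libraries, where the highest value was 0.507, so its groups overlapped.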

How the results depend on the processing

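The count of collagen genes lower in UUO late against sham late was the least stable: 1 as reported, 0 with FPKM rescaled to the same sum, 4 with rescaling by the median of ratios, 2 with a replicate block, 3 when limma was fitted on the compared groups only, and 0 to 2 when 1 library was left out. With the constant of 1 in place of 0.1, the difference in Col6a1 to Col6a2 turned to 0.2436 and that in Col6a3 to Col6a1 shrank to 0.1995. The difference in Col4a1 to Col4a2 ranged from 0.1009 to 0.1638 without 1 library. Outside the 10 most abundant genes the collagen share was 0.0413% in sham early, 0.0393% in sham late and 0.0502% in sham vehicle. The Col4a5 change in UUO vehicle against sham vehicle turned to -0.1131 after rescaling by the median of ratios. That of Col3a1 in UUO early against UUO vehicle ranged from -0.0751 to 0.3575 without 1 library. The cause of these shifts was not tested. Of the values that answer a comparison, 451 recomputed under an alternative kept their direction and side of the threshold or moved by less than their spread, 13 lost the threshold, 13 moved further and 1 reversed. The count of collagen genes higher ranged from 20 to 22 under vehicle, from 22 to 23 under the early course and from 21 to 25 under the late course, against 21, 22 and 22 as reported.

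Same-numbered libraries had correlations of -0.112 to 0.436 in their deviations from the group means, and no comparison had all of them over 0.1, so the numbers are not taken to pair libraries. Depth limits the genes under 1 FPKM, where a few fragments set a value.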
